A study of Homo sapiens with 4 samples.

Results

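Open chromatin around 7 transcription factor genes, TFAP2A, TFAP2B, TFAP2C, TFAP2E, GRHL1, GRHL2 and GRHL3, was examined in SKBR3 cells with and without the cytokine TWEAK. The genes were found by name among 19962 protein-coding genes of GENCODE release 44. Overlapping ATAC-seq peaks (1 bp or more) of the 4 libraries made up 307691 merged sites, and 491 of these sites lay within 100 kb of an annotated transcription start of 1 of the 7 genes. ATAC-seq marks open DNA by letting the Tn5 transposase insert sequencing adaptors into it. SKBR3, an established breast cancer line with HER2 overexpression, was the only line used, so all 4 libraries came from 1 tumour cell line. The untreated group and the TWEAK group had 2 libraries each. Cells were first starved for 8 h, TWEAK (10 ng/ml) was then present for 48 h with a fresh dose after 24 h, and the same culture protocol stands with the untreated samples. The study described its cell line replicates as biological and, in general terms, as repeats made on different days. The labels give no day or culture for a library, and any p-value here measures only the spread between these libraries.

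TFAP2 proteins bind GC-rich palindromic sites as dimers and are known as regulators of neural crest, skin, kidney and mammary gland. TFAP2A and TFAP2C are the members best known in breast cancer, where TFAP2C takes part in the luminal programme and in the expression of ERBB2, the gene of HER2. GRHL proteins, the grainyhead-like factors, open chromatin at epithelial enhancers and maintain cell junction genes, and GRHL2 is the member most often studied in breast epithelium. TWEAK binds the receptor Fn14 and signals to NF-kB, with AP-1 factors also known as responders.

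Each deposited list gave a -log10 p for each of its peaks, and this value depends on sequencing depth, so a site was described by the rank percentile of its value within the list, where 100 is the top. Pileup over background, the number of reads at the peak divided by the background of the list, was recovered from the same values as another scale. The lists held 195388 to 228734 peaks, each 501 bp wide, and their background was 1.85 to 3.59 reads. The lowest peak held 10 reads in untreated replicate 1 and 7 or 8 in the other lists. Divided by the background, this floor was 2.79 and 3.13 in the untreated lists and 3.04 and 3.79 in the TWEAK lists, so it was lowest in untreated replicate 1 and highest in TWEAK replicate 2. Peaks at the promoters of ERBB2, EPCAM, KRT8, KRT18 and KRT7 stood in all 4 lists, which makes 5 of 6 luminal and HER2 markers, and CDH1 had a promoter peak in none. Of 7 markers of other cells, CD3E had a promoter peak in no list, PTPRC in 1 and PECAM1 in 2. CDH5, COL1A1, PDGFRB and ESR1 had one in all 4. Expression was not measured in these data. In bulk chromatin, a site open in more cells and a site more open in each cell cannot be told apart.

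The 7 loci differed widely in how many sites they held. TFAP2C, on chromosome 20 from 56629306 to 56639283 of hg38 on the plus strand, had 150 sites within 100 kb of its starts, at the 98.3 percentile of all protein-coding genes. Peaks covered a mean 29.1% of that window. TFAP2A, on chromosome 6 from 10393186 to 10419659 on the minus strand, had 81 sites and GRHL1, on chromosome 2 from 9951693 to 10002277 on the plus strand, had 80. GRHL3, on chromosome 1 from 24199558 to 24364482 on the plus strand, had 72 sites, and GRHL2, on chromosome 8 from 101492439 to 101669726 on the plus strand, had 62. TFAP2E, on chromosome 1 from 35573314 to 35595328 on the plus strand, had 28 sites. TFAP2B, on chromosome 6 from 50818723 to 50847619 on the plus strand, had 18, at the 26.3 percentile, and peaks covered 3.08% of its window. The median over protein-coding genes was 34 sites, with quartiles of 18 and 60. The windows, which widen with the distance between a gene's annotated starts, ran from 201 kb at TFAP2C to 344 kb at GRHL2. Per 100 kb of window TFAP2C held 74.7 sites, TFAP2A 37.7 and TFAP2B 8.86. Gene copy number, which also adds reads at a locus, was not measured.

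Most sites near the 7 genes were distal. Of the 491, 268 were intergenic (54.6%, against 41.8% of all sites), 136 lay in introns, 27 in exons and 60 within 1 kb of a start of any gene. A member was the gene with the nearest start for 326 of them. TFAP2C had 138 intergenic sites of 150, while GRHL3 had 47 intronic sites of 72. TFAP2E had 9 promoter sites in its window, and only 1 of them was at a start of TFAP2E itself. A peak in all 4 lists was present at 228 of the 491 sites (46.4%, against 42.8% of all sites), and 121 sites (24.6%) rested on 1 list alone.

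**Figure D1:**
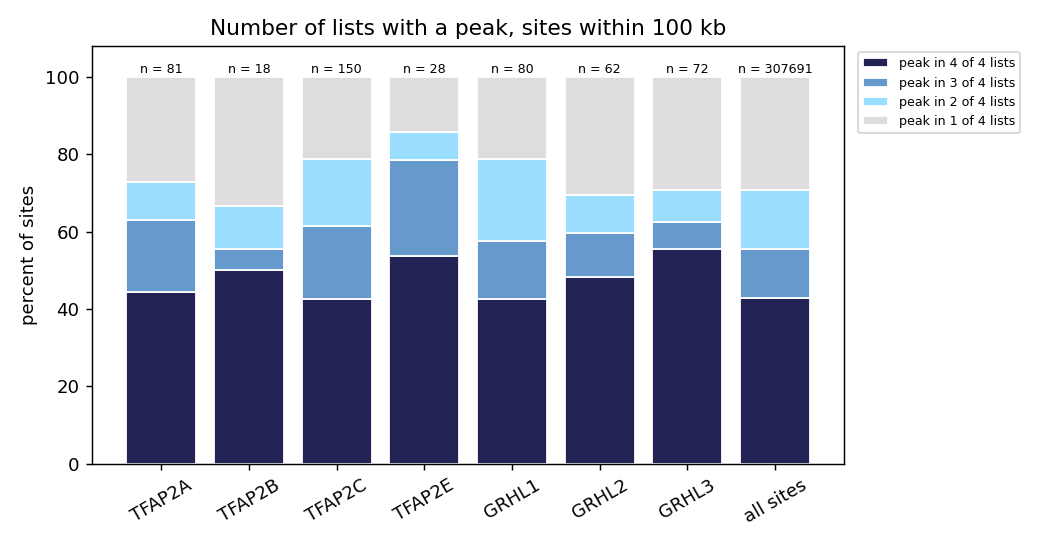
Percent of sites within 100 kb of each gene with a peak in 4, 3, 2 or 1 of the 4 lists, with all sites at the right and the number of sites above each bar. TFAP2C (150 sites) and TFAP2B (18 sites) stand at the ends in number, while the share in all 4 lists runs only from 42.5% at GRHL1 to 55.6% at GRHL3.

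Every member had a promoter site, within 1 kb of a start, with a peak in all 4 lists. At TFAP2C the best promoter site (chromosome 20, 56629859 to 56630378) ranked at 99.6 and 99.7 in the untreated lists and at 99.7 in both TWEAK lists, with a pileup of 149 to 209 times background. At TFAP2A the site over the most upstream start (chromosome 6, 10419406 to 10419937) ranked at 98.8 and 98.7 untreated and at 99.05 and 98.9 with TWEAK. Both promoters ranked near the top of every list, and both genes are the TFAP2 members best known in breast cancer. The GRHL2 promoter (chromosome 8, 101492139 to 101492924) ranked at 98.8 and 97.3 untreated and at 97.9 and 96.9 with TWEAK. The GRHL1 promoter (chromosome 2, 9951351 to 9951872) ranked at 96.7 and 96.3 untreated and at 96.4 and 95.2 with TWEAK. The GRHL3 promoter (chromosome 1, 24319154 to 24319670), which is at an internal start of the long annotated gene, ranked at 91.0 and 89.9 untreated and at 88.5 and 85.7 with TWEAK. The lowest ranks belonged to the other TFAP2 members.

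The TFAP2E promoter (chromosome 1, 35573051 to 35573588) ranked at 74.6 and 71.4 untreated and at 72.2 and 63.2 with TWEAK. The TFAP2B site (chromosome 6, 50820857 to 50821375) ranked at 78.6 and 75.3 untreated and at 68.8 and 58.6 with TWEAK. It lay 410 bp from an alternative start, and the RefSeq promoter of TFAP2B, 250 bases before to 50 after its start, met a peak in 0 lists. In the order of levels TFAP2C came first, TFAP2A and GRHL2 overlapped in their ranges, then came GRHL1 and GRHL3 without overlap, and TFAP2B and TFAP2E overlapped at the bottom. The best site was the highest of 14 promoter sites at TFAP2A, 5 each at GRHL2 and GRHL3 and 4 at TFAP2C. It was the highest of 3 at GRHL1 and 2 at TFAP2B, and the only 1 at TFAP2E. More promoter sites give more chances of a high rank, and the order was not adjusted for this.

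Among the best promoter sites the widest difference of rank was at TFAP2B, by -13.2 points. With 1 library left out this difference ran from -18.3 to -8.15 points. Both TWEAK values lay below both untreated values at TFAP2B, with a mean of 63.7 ± 7.21 against 76.96 ± 2.32 (SD, n = 2 each), and at GRHL3, with 87.1 ± 1.95 against 90.5 ± 0.741. Both TWEAK values lay above at the best TFAP2A site, by 0.204 percentile points. On pileup over background the 3 differences kept their direction without overlap, from 20.9 and 19.2 times background to 16.0 and 14.1 at TFAP2B. At TFAP2C, TFAP2E, GRHL1 and GRHL2 the groups overlapped. A two-sided exact permutation test with 2 libraries against 2 cannot give a p below 0.333, which was the p at TFAP2A, TFAP2B and GRHL3, and the Benjamini-Hochberg adjusted p over the 7 genes was 0.778 or 1. No difference could pass the threshold in this design, and ranks near 100 leave little room for a difference.

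**Figure D2:**
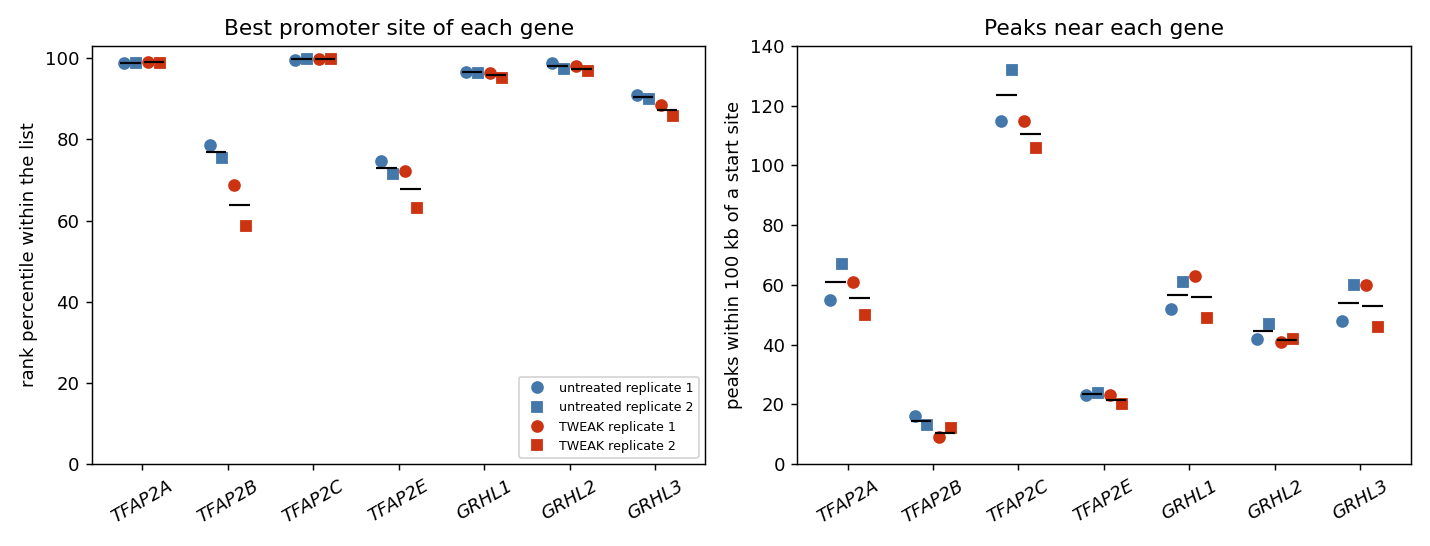
Left, rank percentile within the list of the best promoter site of each gene. Right, number of peaks within 100 kb of a start of each gene. Circles are replicate 1, squares replicate 2, blue untreated, red TWEAK, and black lines the mean of 2 libraries; the TFAP2B promoter shows the widest gap, 76.96 untreated against 63.7 with TWEAK.

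The sequences of the TFAP2B and TFAP2C promoter sites are given because these were the 2 best promoter sites that held a motif of the families themselves within 100 bases of the peak midpoint. Capitals mark the TFAP2 motif GCCNNNGGC and the GRHL motif AACNNGTT, searched on both strands, on the plus strand of hg38. The TFAP2B window held both motifs.
TFAP2B promoter site, chr6:50821025-50821225: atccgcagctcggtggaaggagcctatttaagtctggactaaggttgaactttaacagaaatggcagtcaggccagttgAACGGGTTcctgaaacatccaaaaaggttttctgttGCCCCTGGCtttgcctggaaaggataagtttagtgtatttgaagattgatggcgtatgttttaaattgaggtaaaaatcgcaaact
TFAP2C promoter site, chr20:56630016-56630216: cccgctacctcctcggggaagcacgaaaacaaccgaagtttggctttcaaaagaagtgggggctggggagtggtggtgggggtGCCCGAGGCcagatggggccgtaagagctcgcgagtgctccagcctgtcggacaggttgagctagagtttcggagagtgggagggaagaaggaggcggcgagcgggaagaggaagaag
The RefSeq promoter of the upstream TFAP2A start (GRCh38.p14, the 250 bases before the start, minus strand) held the NF-kB motif, in capitals, as did 11.3% of 35116 RefSeq promoters. Within 100 bases of the peak midpoint the best TFAP2A promoter site held no NF-kB motif, and the best GRHL2 promoter site held it.
TFAP2A upstream promoter: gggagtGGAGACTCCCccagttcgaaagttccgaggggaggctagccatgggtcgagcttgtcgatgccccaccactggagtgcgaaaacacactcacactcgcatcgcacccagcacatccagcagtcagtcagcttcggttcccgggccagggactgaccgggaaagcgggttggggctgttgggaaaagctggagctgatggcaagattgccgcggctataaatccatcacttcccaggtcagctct
Of the 7 RefSeq promoters found for TFAP2A, TFAP2B, TFAP2E, GRHL1 and GRHL3, an internal GRHL3 promoter held the TFAP2 motif, which 23.2% of all RefSeq promoters held. That GRHL3 promoter met a peak in 0 lists. A match is a stretch of letters and does not show that a factor was bound.

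Peak numbers near the genes did not separate the groups beyond the libraries' own spread. TFAP2A had 55 and 67 peaks untreated and 61 and 50 with TWEAK. TFAP2C had 115 and 132 untreated and 115 and 106 with TWEAK. GRHL1 had 52 and 61 untreated against 63 and 49, GRHL2 42 and 47 against 41 and 42, GRHL3 48 and 60 against 60 and 46, and TFAP2E 23 and 24 against 23 and 20. In all of these the groups overlapped or touched. TFAP2B, with 16 and 13 peaks untreated and 9 and 12 with TWEAK, was the exception in which they did not overlap. Scaled to 100000 peaks of the list, its values were 7.68 and 5.68 untreated against 4.12 and 6.14 with TWEAK and overlapped. On the same scale TFAP2C had 55.2 and 57.7 untreated against 52.7 and 54.3 with TWEAK and no longer overlapped. For the numbers themselves the exact permutation p was 0.333 at TFAP2B and 0.667 or 1 at the others, and the Benjamini-Hochberg adjusted p was 0.933 or 1.

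**Figure D3:**
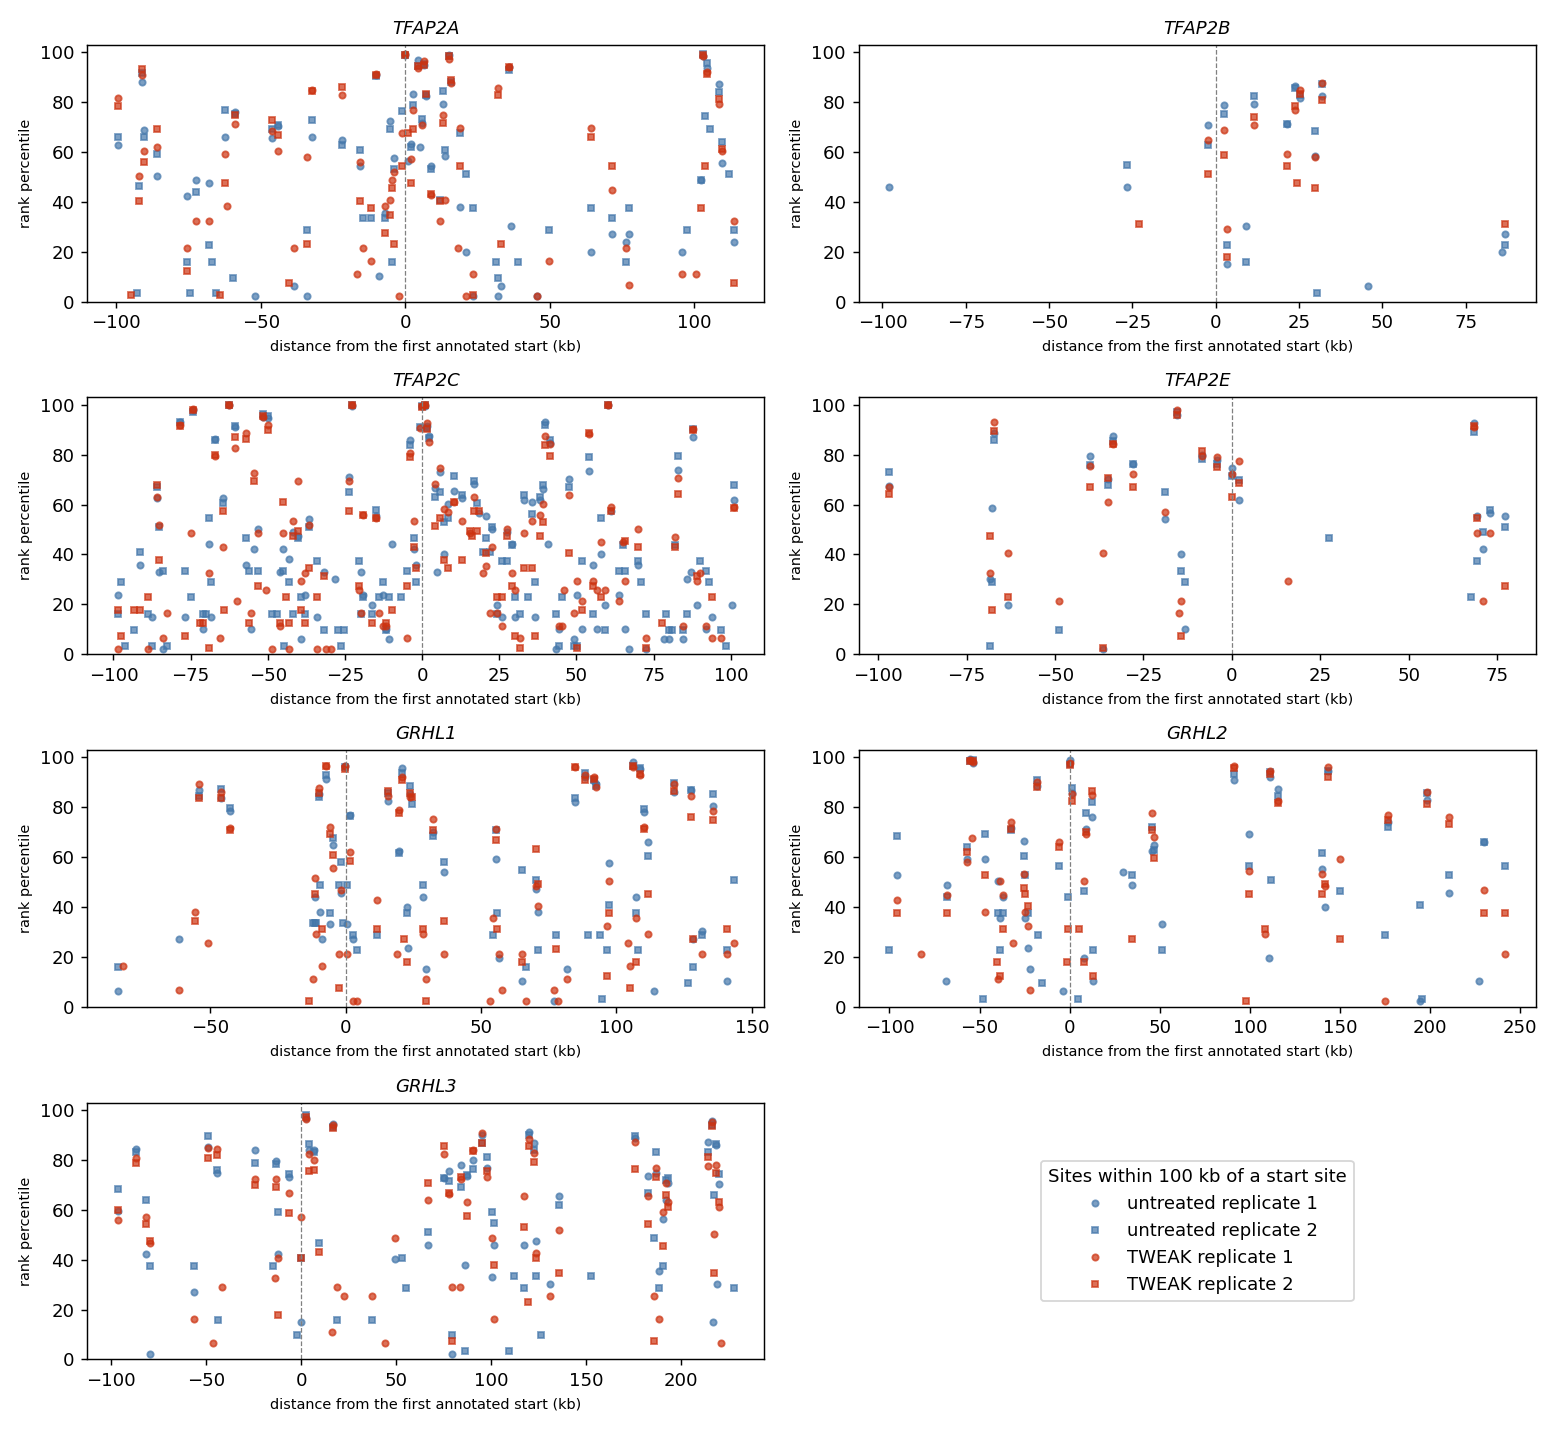
Rank percentile within the list of every peak site within 100 kb of a start, plotted against distance from the first annotated start of each gene (negative is upstream, in kb), by library. TFAP2C is crowded with 150 sites on both sides of the gene and TFAP2B is sparse with 18, and at high ranks the 4 libraries lie close together.

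Few sites near the 7 genes were present in both lists of 1 group and in neither list of the other. Sites were called gained when both TWEAK lists, and no untreated list, held a peak there, and lost in the opposite case. Gained sites numbered 4 of 491 (0.815%), beside 3.6% of all sites, and lost sites 14 (2.85%), beside 3.79% of all sites. None of the 18 ranked above the 50th percentile in both lists that had it, whereas 16.4% of all gained and 5.53% of all lost sites did. A peak of the other treatment stood within 500 bp of 1 of the 4 gained and 5 of the 14 lost sites, beside 27.5% of all gained and 34.1% of all lost sites.

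The gained sites belonged to TFAP2C, GRHL1 and GRHL2. The TFAP2C site (chromosome 20, 56644508 to 56645012, intergenic) ranked at 48.6 and 49.4 in the TWEAK lists and had an untreated peak 246 bp away. A site upstream of GRHL1, in an intron of TAF1B (chromosome 2, 9895619 to 9896165), ranked at 38.1 and 34.6. Another near GRHL1 (chromosome 2, 10056367 to 10056987) lay in an exon of CYS1 and ranked at 16.4 and 7.37. The GRHL2 site (chromosome 8, 101600356 to 101600879), in an intron of GRHL2, ranked at 29.2 and 31.2 and was the only one of the 18 with the AP-1 motif TGACTCA. The lost sites were 6 at TFAP2C, 2 each at TFAP2B, GRHL1 and GRHL2, and 1 each at TFAP2E and GRHL3, with none at TFAP2A.

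The highest lost ranks were at TFAP2B (chromosome 6, 50791814 to 50792331), with 45.8 and 54.8 in the untreated lists, and at GRHL1 (chromosome 2, 9942142 to 9942659), with 38.0 and 48.9 and a TWEAK peak 7 bp away. The other TFAP2B site, in an intron (50827533 to 50828218), ranked at 30.3 and 16.0. The 6 lost TFAP2C sites started at 56541531, 56560722, 56618195, 56672329, 56709061 and 56714767 on chromosome 20, and none ranked above 30.3. All 6 were intergenic and 3 of them had a TWEAK peak within 500 bp. The remaining lost sites started at 35559735 on chromosome 1 near TFAP2E, at 9867266 on chromosome 2 near GRHL1, at 24285339 on chromosome 1 in GRHL3, and at 101543223 and 101686583 on chromosome 8 near GRHL2. The last of these was the only one with the GRHL motif.

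Some strong sites were missing from a list. Of the 491 sites, 14 (2.85%, beside 2.94% of all sites) ranked above the 50th percentile in each list that had them and yet were missing from 1 or 2 lists. For 11 of the 14, every missing list had another peak within 500 bp (78.6%, beside 54.9% over all sites). At TFAP2A, where such sites made up 7.41% of all 81, this held for 6 of 6, at TFAP2C for 3 of 4, at GRHL1 for 2 of 2, and at TFAP2E and GRHL2 for 0 of 1 each.

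The GRHL1 gained window and the TFAP2B lost window are shown as the best-ranked of those kept for printing, with no peak of the other treatment within 500 bp; neither holds a searched motif, so there are no capitals.
GRHL1 gained site, chr2:9895769-9895969: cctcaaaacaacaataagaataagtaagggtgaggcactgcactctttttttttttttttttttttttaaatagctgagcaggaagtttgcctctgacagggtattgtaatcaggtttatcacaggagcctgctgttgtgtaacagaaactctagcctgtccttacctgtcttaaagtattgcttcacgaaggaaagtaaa
TFAP2B lost site, chr6:50791981-50792181: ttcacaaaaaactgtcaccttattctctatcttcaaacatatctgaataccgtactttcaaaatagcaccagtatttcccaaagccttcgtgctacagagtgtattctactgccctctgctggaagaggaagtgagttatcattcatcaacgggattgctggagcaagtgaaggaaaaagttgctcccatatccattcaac

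Among the 228 sites with a peak in all 4 lists, differences between groups ran in both directions. By rank within the list, both TWEAK values lay above both untreated values at 40 sites (17.5%), beside 15.8% of all such sites, and below at 91 (39.9%), beside 35.4%. By pileup over background the split turned over, with 78 above (34.2%), beside 34.8%, and 38 below (16.7%), beside 12.2%. By rank among the 131751 sites shared by all lists there were 57 above (25%), beside 23.3%, and 74 below (32.5%), beside 28%. The median of all shared sites itself moved by -1.75 percentile points, by 0.14 on the log2 pileup scale and by -0.45 points on these scales, and the 228 sites had medians of -1.88, 0.10 and -0.63. On all 3 scales at once, 39 of the 228 lay above (17.1%), beside 15.4%, and 38 below (16.7%), beside 12.2%. The shares near the 7 genes were thus a few percentage points from the background at most.

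By gene, the sites above on all 3 scales numbered 9 of 36 at TFAP2A, 9 of 34 at GRHL1, 8 of 64 at TFAP2C, 6 of 40 at GRHL3, 4 of 30 at GRHL2, 2 of 15 at TFAP2E and 1 of 9 at TFAP2B. Those below numbered 5 at TFAP2A, 5 at GRHL1, 11 at TFAP2C, 10 at GRHL3, 2 at GRHL2, 2 at TFAP2E and 3 at TFAP2B. These counts stand beside the background of 15.4% above and 12.2% below. The split of a gene turned with the scale. By rank every gene had more sites below than above, such as 13 against 10 at TFAP2A and 12 against 9 at GRHL1. By pileup every gene except TFAP2B (2 above, 3 below) had more above, such as TFAP2A (14 and 5), GRHL1 (13 and 5), TFAP2C (19 and 11) and GRHL3 (14 and 10). The differences between genes were not tested.

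**Figure D4:**
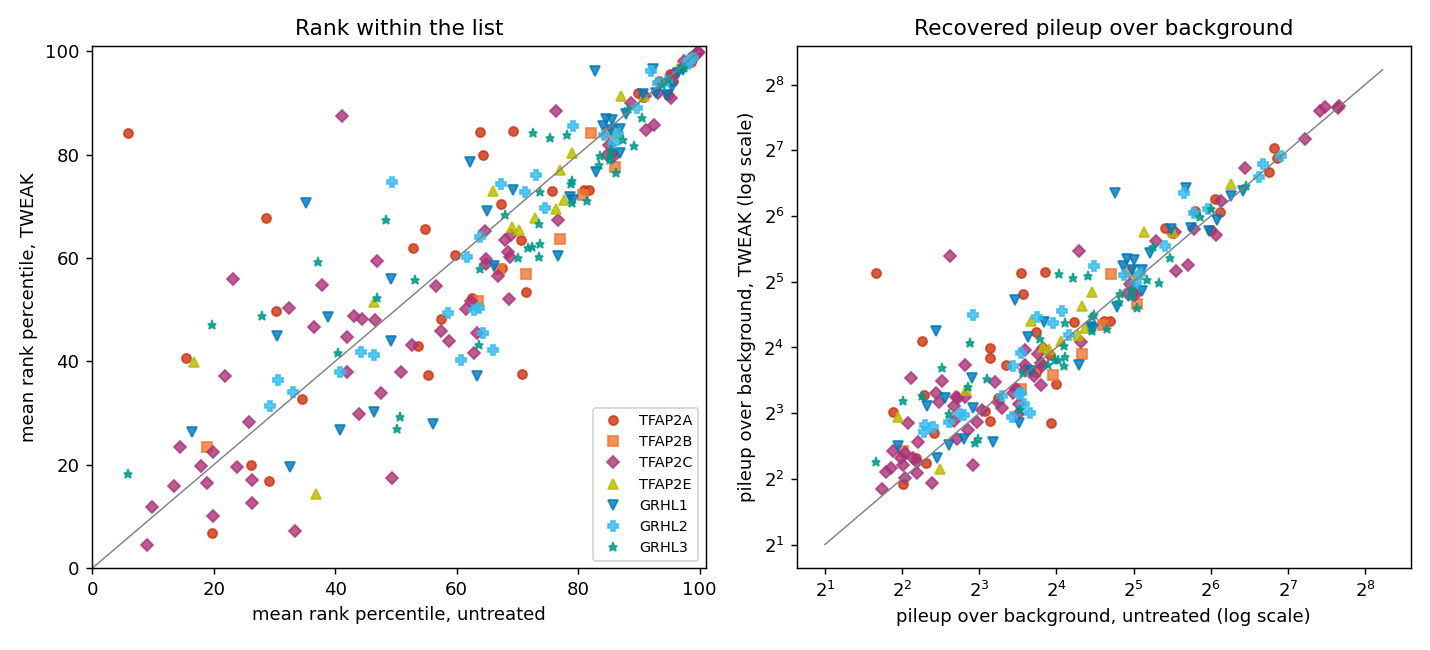
Left, mean rank percentile of the 228 sites with a peak in all 4 lists, untreated on the x axis and TWEAK on the y axis, by gene; right, the same sites on pileup over background, both axes on a log scale, with the line of equal values in grey. Most sites lie along the line, and a TFAP2A site far above it at the left went from a mean rank near the bottom of the untreated lists to ranks of 85.7 and 82.7 with TWEAK.

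The widest upward difference of rank among all 131751 shared sites was near TFAP2A. This intergenic site (chromosome 6, 10387177 to 10387724), downstream of the gene and 32208 bp from its first start, ranked at 2.13 and 9.60 in the untreated lists and at 85.7 and 82.7 in the TWEAK lists. Its pileup was 2.79 and 3.58 times background untreated and 34.9 and 35.2 times with TWEAK, an 11.1-fold ratio of geometric means. The value of untreated replicate 1 is the floor of that list. The mean rank differed by 78.4 points, and by 75.4 points when ranked among shared sites only, where the widest difference of any site was 88.1. On the pileup scale 26 of the 131751 shared sites, itself included, differed upward by as much. TFAP2A had the nearest start, 16870 bp away. The 4 peak midpoints lay within 47 bp of each other, so all lists placed a peak at the same spot. An untreated peak of another site lay 282 bp from its edge. The site was picked for the size of its difference, which is therefore a description, and with 2 libraries against 2 no exact test could pass the threshold.

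Other sites with wide upward differences were found at TFAP2C, TFAP2A and GRHL1. At TFAP2C an intergenic site (chromosome 20, 56572076 to 56572650), 56943 bp upstream of the first start and nearest to FAM209B, ranked at 35.6 and 46.5 untreated and at 88.5 and 86.4 with TWEAK, with a pileup ratio of 6.83. A TFAP2A site (chromosome 6, 10355053 to 10355776), 64244 bp downstream of the first start, ranked at 19.8 and 37.4 untreated and at 69.4 and 66.0 with TWEAK, a ratio of 3.59. Its untreated peaks had midpoints 223 bp apart. In each of these sites both TWEAK libraries lay far above both untreated ones and close to each other.

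Upstream of GRHL1 a site (chromosome 2, 9945510 to 9946045), 5915 bp from the first start, ranked at 33.1 and 37.4 untreated and at 72.2 and 69.2 with TWEAK, a ratio of 3.54. At TFAP2C another site (chromosome 20, 56610028 to 56610555), 19014 bp upstream, ranked at 23.7 and 22.8 untreated and at 55.8 and 56.0 with TWEAK, a ratio of 2.67. These 4 differences were matched or passed by 279, 597, 826 and 1082 of the 131751 shared sites. That is 0.212% to 0.821% of them.

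The windows of the 5 sites are printed because 4 of them held the NF-kB motif, in capitals, the exception being the TFAP2C site 57 kb upstream. They are the 5 sites near these genes with an upward mean rank difference of at least 30 points, and their printing was decided after their values were seen. The motif was not counted over all shared sites with a rise this wide, so 4 of 5 stands without a background. Each is 201 bases around the midpoint of the best peak, plus strand, hg38.
TFAP2A site 32 kb downstream, chr6:10387374-10387574: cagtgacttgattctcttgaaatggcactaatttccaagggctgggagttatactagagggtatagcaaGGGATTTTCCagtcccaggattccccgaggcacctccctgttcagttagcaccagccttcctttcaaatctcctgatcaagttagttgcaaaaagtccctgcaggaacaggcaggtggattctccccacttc
TFAP2A site 64 kb downstream, chr6:10355424-10355624: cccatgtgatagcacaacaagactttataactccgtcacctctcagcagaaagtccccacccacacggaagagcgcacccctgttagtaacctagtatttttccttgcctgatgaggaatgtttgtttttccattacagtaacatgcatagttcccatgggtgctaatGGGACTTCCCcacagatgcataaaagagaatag
TFAP2C site 57 kb upstream, chr20:56572247-56572447: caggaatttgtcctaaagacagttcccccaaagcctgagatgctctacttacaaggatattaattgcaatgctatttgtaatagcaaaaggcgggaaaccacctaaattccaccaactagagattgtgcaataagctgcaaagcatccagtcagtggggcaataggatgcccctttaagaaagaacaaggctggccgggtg
TFAP2C site 19 kb upstream, chr20:56610198-56610398: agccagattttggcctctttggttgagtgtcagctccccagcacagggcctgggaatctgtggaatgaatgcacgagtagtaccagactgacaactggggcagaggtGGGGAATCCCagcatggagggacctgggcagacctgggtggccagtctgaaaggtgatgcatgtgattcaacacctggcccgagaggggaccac
GRHL1 site 5.9 kb upstream, chr2:9945660-9945860: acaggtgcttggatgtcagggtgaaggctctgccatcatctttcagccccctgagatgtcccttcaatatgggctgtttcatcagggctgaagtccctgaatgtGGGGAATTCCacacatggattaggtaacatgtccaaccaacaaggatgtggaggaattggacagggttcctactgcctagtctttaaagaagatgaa
In all, 9 of the 40 sites above by rank, the 4 printed ones among them, held the NF-kB motif (22.5%) and 2 of the 91 sites below (2.198%). Over all shared sites the shares were 12.7% of those above and 3.94% of those below. The AP-1 motif stood in 11 of the 40 (27.5%) and 8 of the 91 (8.79%), against 22.1% and 5.99% over all shared sites. Both motifs were more frequent above than below also over all shared sites, and whether the shares near these genes differ from those was not tested.

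**Figure D5:**
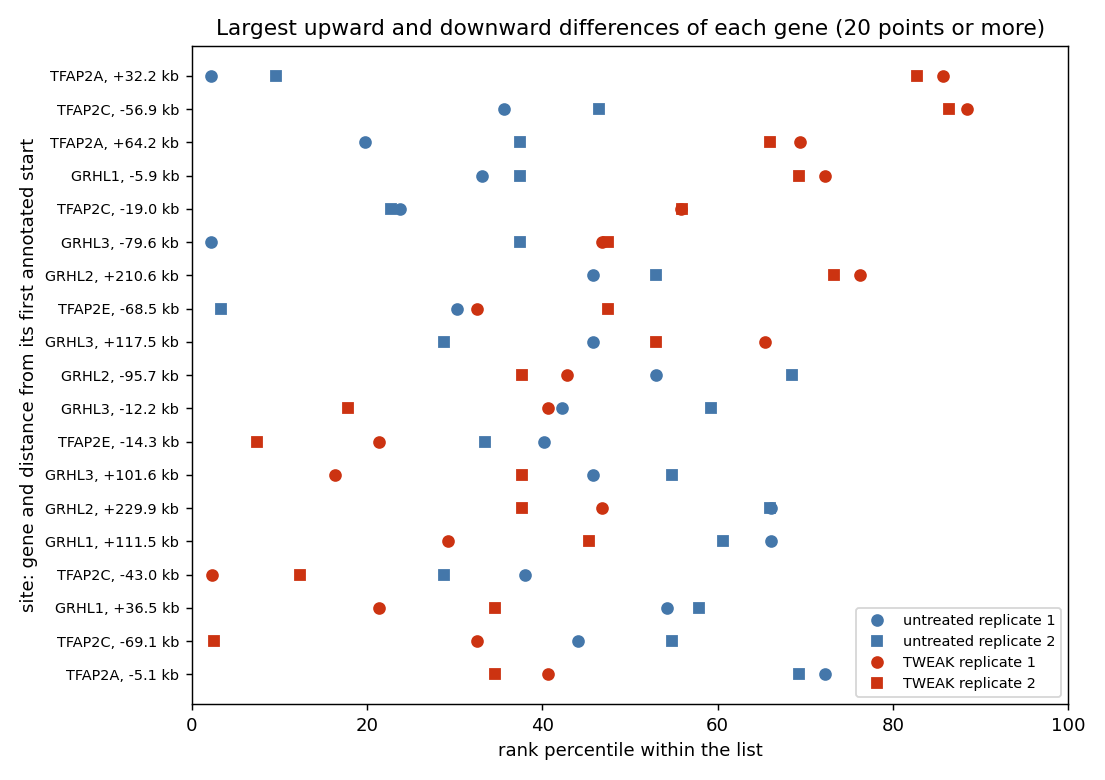
Rank percentile within the list of the sites with the largest upward and downward differences of each gene, limited to mean differences of at least 20 points, labelled by gene and distance from its first annotated start (plus is downstream). The TFAP2A site 32 kb downstream, at the top, has untreated ranks of 2.13 and 9.60 and TWEAK ranks of 85.7 and 82.7.

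The remaining genes had smaller upward differences. At GRHL2 an intronic site of the neighbouring NCALD (chromosome 8, 101702749 to 101703275), with the GRHL motif, ranked at 45.8 and 53.0 untreated and at 76.2 and 73.3 with TWEAK. An intronic GRHL2 site with the AP-1 motif (101504425 to 101505004), 12276 bp past the first start, ranked at 76.3 and 81.9 untreated and at 84.7 and 86.4 with TWEAK. In an intron of GRHL1 a site with the AP-1 motif (chromosome 2, 9971018 to 9971530) ranked at 62.6 and 61.8 untreated and at 79.1 and 77.9 with TWEAK. These sites had peaks in both untreated lists and ranked higher in both TWEAK lists.

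A GRHL3 site (chromosome 1, 24316640 to 24317549, intron, AP-1 motif) ranked at 45.8 and 28.8 untreated and at 65.4 and 52.9 with TWEAK. Another of GRHL3 (24119332 to 24120580), in an exon of IL22RA1, ranked at 2.13 and 37.4 untreated and at 46.8 and 47.4 with TWEAK, so the untreated libraries differed widely from each other. The 2 TFAP2E sites were at KIAA0319L (chromosome 1, 35504533 to 35505113 and 35505884 to 35506436), with mean differences of 23.2 and 4.16 points. The single TFAP2B site (chromosome 6, 50843811 to 50844321, exon) ranked at 81.5 and 82.8 untreated and at 84.9 and 83.3 with TWEAK, a difference of 1.97 points.

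Downward differences were widest just upstream of TFAP2A. The site at 10424512 to 10425087 of chromosome 6, 5141 bp upstream of the first start, ranked at 72.2 and 69.3 untreated and at 40.6 and 34.6 with TWEAK, and its pileup was 2.11 times as high untreated. At GRHL1 an intronic site (chromosome 2, 9987763 to 9988580) ranked at 54.2 and 57.9 untreated and at 21.4 and 34.6 with TWEAK, and a site in CYS1 (10062909 to 10063506) at 66.0 and 60.6 against 29.2 and 45.3. Both held the TFAP2 motif. None of these sites overlapped between groups on any of the 3 scales.

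At TFAP2C, 2 intergenic sites (chromosome 20, 56559821 to 56560680 and 56585917 to 56586749) had mean differences of -31.9 and -26.1 points, and their peak midpoints were up to 359 and 332 bp apart between lists. Ranked among shared sites only, they differed by -19.2 and -9.32 points. At GRHL2 a site in NCALD (chromosome 8, 101722072 to 101722629, TFAP2 motif) ranked at 66.0 in both untreated lists and at 46.8 and 37.7 with TWEAK. The other GRHL2 site (101396517 to 101397046) and both GRHL3 sites (chromosome 1, 24300876 to 24301426 and 24187079 to 24187607) separated by rank and overlapped on another scale. The TFAP2B sites were an intronic one (chromosome 6, 50839818 to 50840367), at 71.3 and 71.4 untreated against 59.2 and 54.5 with TWEAK, and the promoter site described above. TFAP2E sites differed by -22.5 points at NCDN (chromosome 1, 35558639 to 35559337) and by -6.78 points in KIAA0319L (35544970 to 35545490), and another TFAP2A site (chromosome 6, 10481791 to 10482479, nearest GCNT2) by -18.1 points. By rank among shared sites the NCDN site differed by -9.91 points, the KIAA0319L site by -7.31 and this TFAP2A site by -20.7.

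The best-ranked distal sites stood near the top of every list, where ranks leave little room to differ. The best-ranked site outside promoters near TFAP2C (chromosome 20, 56566498 to 56567013, GRHL motif) ranked between 99.7 and 99.8 in all 4 lists, with a pileup of 181 to 228 times background. The one near GRHL2 (chromosome 8, 101436971 to 101437482), 55212 bp upstream, ranked between 98.5 and 99.2. The one near TFAP2A (chromosome 6, 10316300 to 10316815, TFAP2 motif), 103101 bp downstream of the first start, ranked between 98.4 and 99.2. At GRHL2 and TFAP2A the groups overlapped, and at TFAP2C both TWEAK ranks lay below both untreated ranks while the pileups overlapped.

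The GRHL1 site was in an exon of CYS1 (chromosome 2, 10057587 to 10058130) at 96.1 to 98.0, and the GRHL3 site in an intron near its first start (chromosome 1, 24201920 to 24202448) at 96.5 to 97.9. TFAP2B (chromosome 6, 50850230 to 50850757) reached 81.0 to 87.5 and TFAP2E (chromosome 1, 35539313 to 35539843) 84.1 to 87.4. Sites with a mean rank above 90 numbered 37 of the 228 (16.2%, against 15.2% of all shared sites). Outside promoters there were 23, of which 4 lay above (17.4%, beside 21% of all such sites) and 2 below (8.70%, beside 10.8%) on all 3 scales. By gene, of the 37, TFAP2C had 10, TFAP2A 9, GRHL1 7, GRHL2 6, GRHL3 3, TFAP2E 2 and TFAP2B 0.

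The 6 of these 23 sites that separated the groups were chosen for their separation and are described without a test. Upstream of GRHL1 an intergenic site (chromosome 2, 9944274 to 9944787, TFAP2 motif) had a pileup of 45.7 and 57.3 times background untreated and 80.9 and 91.5 times with TWEAK, and it lay next to the GRHL1 site 5.9 kb upstream described above. In an intron of GRHL2 a site with the TFAP2 and NF-kB motifs (chromosome 8, 101583308 to 101583815) had 43.5 and 58.6 times background untreated and 80.5 and 83.4 times with TWEAK. The other sites above were smaller in difference, at TFAP2C (chromosome 20, 56554850 to 56555366, AP-1 motif), where FAM209B had the nearest start, with 85.9 and 88.6 against 102.5 and 110.5 times, and upstream of TFAP2A (chromosome 6, 10429578 to 10430091), with 43.8 and 46.5 against 50.5 and 56.3 times. All 4 ranked above 90 untreated as well as with TWEAK.

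At TFAP2C the site below (chromosome 20, 56579108 to 56579617) had 60.8 and 73.8 times background untreated and 52.4 and 52.5 times with TWEAK. In an intron of GRHL1 the other (chromosome 2, 9971980 to 9972997) had 66.4 and 60.4 against 52.8 and 56.3 times. A pair of sites just under a mean rank of 90, added after their values were seen, also separated on all 3 scales. Near GRHL1, with KLF11 as the nearest start, an intergenic site (chromosome 2, 10035979 to 10036519, TFAP2 and NF-kB motifs) had 24.8 and 29.5 times background untreated and 76.7 and 87.2 times with TWEAK. Downstream of TFAP2C the other (chromosome 20, 56668820 to 56669337) had 51.6 and 52.8 times untreated and 39.1 and 37.4 times with TWEAK.

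The families' own motifs were about as frequent near these genes as elsewhere. Within 100 bases of the midpoint, 14.1% of the 491 sites held the TFAP2 motif, against 12.1% of all sites, and 3.46% held the GRHL motif, against 4.29%. The stricter GRHL form AACCGGTT, which is contained in the wider one, was in 0 of 491 and in 0.137% of all sites. The TFAP2 motif was in 18 of the 60 promoter sites (30%), against 18.5% of all promoter sites. The AP-1 motif was in 10.2% against 9.01%, and in sites of all 4 lists in 15.4% against 10.6%. The NF-kB motif was in 6.52% against 6.21%, and in sites of all 4 lists in 8.77% against 5.96%. These shares were not tested.

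Relatives and cofactors (TFAP2D, TFCP2, TFCP2L1, UBP1, CITED1, CITED2, CITED4, KCTD1 and KCTD15) had 355 sites, with 8 gained (2.25%) and 17 lost (4.79%). Of their 170 shared sites 15 lay above by rank (8.82%, beside 15.8%) and 71 below (41.8%, beside 35.4%). By pileup 33 lay above (19.4%, beside 34.8%) and 27 below (15.9%, beside 12.2%). TFCP2L1 had 3 gained and 3 lost of 44 sites and TFCP2 had 2 gained and 2 lost of 47. CITED4 and KCTD15, the latter a repressor of TFAP2A activity, had 4 lost sites each, of 70 and 48. The 15 epithelial and luminal genes, among them CDH1, EPCAM, ERBB2 and GATA3, had 1100 sites, with 33 gained (3%) and 31 lost (2.82%), and of 524 shared sites 90 above (17.2%) and 200 below (38.2%) by rank. By pileup 184 lay above (35.1%) and 68 below (13.0%). RAB25, a trafficking GTPase of epithelia, had 7 gained of 113 sites (6.19%), OVOL2 5 of 64 (7.81%) and ERBB2 4 of 240 (1.67%), beside 3.6% of all sites. The luminal keratin genes KRT8 and KRT18, which are neighbours and share sites, had 8 lost of 104 and 7 lost of 93 sites, and RAB25 had 6. Both groups of genes were counted without a test, beside 3.6% gained and 3.79% lost over all sites.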

How the data were processed

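ATAC-seq was performed on 2 untreated and 2 TWEAK-treated SKBR3 libraries, grouped by sample title. According to the methods and the submitters' processing notes, the authors used Trimmomatic for adaptors and Bowtie2 for mapping to hg38. Reads of mitochondria (Bamtools) and duplicates (Picard) were taken out before MACS2 peak calling, library by library. Versions, settings and any read shifting are not given in the sources used here. Each deposited peak carries a value that was read, from the values, as an uncorrected -log10 p-value: all values equalled Poisson tails of whole-number pileups against 1 background per list, within 0.0022 of a step. Counting a pileup as at least k reads was assumed, and the other convention would shift each by 1.

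Peaks on chromosomes 1 to 22 and X were merged into sites in Python 3.11.15 with numpy 2.4.6 and pysam 0.24.0. A site with several peaks of 1 list took the highest value. Ties took their average rank. DiffBind, the study's test, needs reads and was not run. Two-sided exact permutation tests over libraries compared the groups, with Benjamini-Hochberg adjustment over the 7 genes. The steps were tested on simulated lists. Total reads per library are unknown here, so the depth is given by the recovered background.

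The genes, lists, motifs and tests were chosen with earlier results of these data known. Sites named were the best promoter site of each gene, all gained and lost sites, the 2 widest upward and downward differences by rank per gene among sites whose groups did not overlap, and the best site outside promoters; of the other lists, up to 3 genes with the most gained or lost sites. Windows of 201 bases were to be printed for gained and lost sites isolated from the other treatment and for promoters with a TFAP2 or GRHL motif, none from chromosome 8 and none that touched an annotated UTR. Of the 8 gained or lost windows chosen this way, which held no motif, 2 are printed. The RefSeq promoter and the windows of 5 upward sites were added after their values were seen. RefSeq promoters of TFAP2C and GRHL2 were not used. Alternatives were another distance, peak threshold, overlap, scale, each library left out and the replicate number as a block.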

Additional observations from a re-analysis of the deposited data

How the results depend on the processing

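With 2 libraries a group, no test could pass the threshold, and counts near the detection limit moved with most settings. Gained sites numbered 4, against 2 within 50 kb, 9 with a -log10 p of at least 5, 10 with an overlap of at least 250 bp, and 15 to 37 with 1 library left out. Lost sites numbered 14, against 8 within 50 kb, 9 without a TWEAK peak within 500 bp, and 31 to 65 with 1 library left out; with a single library left in a group more sites meet either pattern by construction. In each of these settings except the lost sites without TWEAK replicate 1 (9.38% against 9.29%), the share near the 7 genes was below that of all sites. Shared sites above by rank numbered 40, against 78 by pileup over background and 53 to 82 with 1 library left out. Those below numbered 91, against 38 by pileup, 38 on all 3 scales, and 114 to 142 with 1 library left out. Without untreated replicate 1 both shares near the 7 genes were below those of all sites (21.1% against 22.3% above, 51.8% against 54.7% below). The rank among shared sites, the 3 scales together and peaks per 100000 were compared after the data had been seen.

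The differences that changed sign were as follows. For the best promoter site they were GRHL1 (0.0341) and TFAP2E (0.0447) on the log2 pileup scale, and, with 1 library left out, GRHL2 (range -1.39 to 0.160) and TFAP2C (-0.0136 to 0.114), both turning without untreated replicate 1. For the number of peaks, with 1 library left out, GRHL1 ran from -7.5 to 6.5, GRHL3 from -8 to 6 and TFAP2A from -11.5 to 0.5, turning without untreated replicate 2 and, for the GRHL genes, also without TWEAK replicate 2. Per 100000 peaks the TFAP2C groups no longer overlapped (exact permutation p 0.333), and GRHL1 (1.15) and GRHL3 (0.875) changed sign, as did GRHL3 within 50 kb (1), and, with a -log10 p of at least 5, GRHL3 (1.5), TFAP2C and GRHL2 (0.5 each). The cause was not tested. The peak difference came to 0 at GRHL1 within 50 kb and at TFAP2A without TWEAK replicate 2. In the whole best peak instead of 201 bases, 9.37% of the sites held the GRHL motif, beside 8.48% of all sites, 12.4% the NF-kB motif, beside 13.2%, and 18.9% the TFAP2 motif, beside 20.8%, and 13.6% the AP-1 motif, beside 13.7%, so the order against all sites turned for all 4, for AP-1 by less than the rounding of these shares.

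Whether same-numbered libraries were made together is not known, because the labels give no day or culture. Deviations of same-numbered libraries correlated at 0.0256 over the shared sites, which cannot decide this with 4 libraries. With the replicate number as a block, the exact permutation p of the TFAP2B promoter difference of -13.2 points was 0.5, the smallest that block allows, so the block could make no call.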
